A study of Mus musculus with 9 samples.

Results

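The tumour necrosis factor (TNF) superfamily of ligands and receptors was examined in whole mouse eyeballs by RNA sequencing. Members were the protein-coding genes whose symbol begins with Tnfsf or Tnfrsf, together with Tnf, Lta, Ltb, Ltbr, Cd40, Cd40lg, Cd27, Cd70, Fas, Fasl, Eda, Edar, Eda2r, Ngfr and Relt. The rule found 36 of the 22587 genes in the tables, 10 ligands and 26 receptors, and all 36 passed the filter on low counts. By known structure, 7 of the receptors carry a death domain, 15 bind TNF receptor associated factors (TRAFs) without one, and 4 are decoy or short receptors. The RefSeq gene table lists 11 further family genes, 9 ligands and 2 receptors, which were not analysed here: Lta, Fasl, Cd70, Cd40lg, Tnfsf4, Tnfsf11, Tnfsf14, Tnfsf15, Tnfsf18, Tnfrsf13c and Tnfrsf17.

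All mice were wild-type BALB/C females, 15 in all. There were 3 libraries in each of 3 groups, with 39.1 to 64.6 M reads counted over the genes in the tables. The T.chuii group was injected intraperitoneally with scopolamine and fed 300 mg/kg of Tetraselmis chuii, a green marine microalga. The DES group, for dry eye syndrome, was injected with scopolamine and given water. The CON group was given water and, as far as the labels say, was not injected, so the drug and the act of injection cannot be told apart. Treatment began at 6 weeks of age and lasted 2 weeks, and the labels give the tissue age as postnatal day 56. Scopolamine, a muscarinic antagonist, lowers tear secretion. It is not stated that each library is a different animal, and the p-values then reflect library-to-library spread, some of which may be technical.

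TNF family ligands are mostly membrane-bound trimers, some of them shed by proteases, and they signal by clustering their receptors. Receptors with a death domain, such as Fas and Tnfrsf1a, recruit adaptors that can activate caspases or NF-kB, the transcription factor behind many inflammatory genes, while other signalling receptors of the family recruit TRAF proteins directly and the decoy receptors bind ligand without signalling. In dry eye, TNF made at the ocular surface is a known inflammatory signal, and in the eye Fas and its ligand are known for removing infiltrating immune cells.

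Promoters of 3 members are shown because the results below turn on Fas and Tnf, and because Ltb lies beside Tnf on chromosome 17 and held the closest match to an NF-kB site among them. Each sequence is the 250 bases before the RefSeq start (GRCm38.p6, the assembly also called mm10), written 5′ to 3′ on the gene's strand, with matches in capitals. The motif was 3 G, any 5 bases and 2 C, searched on both strands, and overlapping matches were joined. The start used for Fas lies inside its gene interval, which begins at 34290647, so the last bases of the Fas sequence fall within that interval.
Fas promoter, chr19:34290409-34290658, plus strand: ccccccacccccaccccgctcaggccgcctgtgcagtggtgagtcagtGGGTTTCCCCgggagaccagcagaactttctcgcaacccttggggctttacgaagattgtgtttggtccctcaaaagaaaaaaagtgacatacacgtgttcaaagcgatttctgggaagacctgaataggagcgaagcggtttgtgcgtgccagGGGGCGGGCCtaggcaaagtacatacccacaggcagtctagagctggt
Tnf promoter, chr17:35202008-35202257, minus strand: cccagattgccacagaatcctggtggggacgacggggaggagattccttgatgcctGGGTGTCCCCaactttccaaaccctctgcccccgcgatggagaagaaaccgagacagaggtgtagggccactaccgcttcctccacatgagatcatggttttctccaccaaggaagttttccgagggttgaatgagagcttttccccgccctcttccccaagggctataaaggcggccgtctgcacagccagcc
Ltb promoter, chr17:35194257-35194506, plus strand: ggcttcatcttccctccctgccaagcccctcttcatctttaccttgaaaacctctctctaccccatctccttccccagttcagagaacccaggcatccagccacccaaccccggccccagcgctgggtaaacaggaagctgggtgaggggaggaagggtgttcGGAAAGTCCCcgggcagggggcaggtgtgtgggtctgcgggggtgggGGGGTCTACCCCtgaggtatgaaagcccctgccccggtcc

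In these 250 bases Fas had 2 matches, Tnf had 1 and Ltb had 4, of which 3 overlapped. A stricter form of the site, with a purine after the 3 G and 2 pyrimidines before the 2 C, was met in these 3 promoters only by GGAAAGTCCC, read on the other strand, which begins 87 bases before the Ltb start. Over the whole window of 300 bases in the RefSeq promoter table, from 250 before to 50 after the start, 29 of the 36 members had an entry, and 21 of the 29 (72.4%) held the looser motif, against 53.5% of all 27025 genes in that table. The stricter form was present in 4 of the 29 members (13.8%), against 9.55% of all genes. A match is a description of the letters only. By position, 8 members lie on chromosome 4 and 5 each on chromosomes 11 and 17.

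The highest levels in the family were those of receptors, although the median level of the 10 ligands (1.94 FPKM) was above that of the 26 receptors (0.648 FPKM). These medians cover only the genes analysed, and 9 ligands but only 2 receptors of the RefSeq gene table were left out. Their levels are not known here, so the order of the medians may not hold for the whole family. Levels between genes are compared in FPKM, fragments counted per kilobase of a gene's transcript and corrected for sequencing depth, as deposited. Tnfrsf12a, the receptor for the cytokine Tnfsf12 (TWEAK), averaged 20.9 FPKM over the 9 libraries, and Tnfrsf1a, the main signalling receptor for TNF, averaged 20.8 FPKM. Only 5 members averaged 10 FPKM or more, 16 averaged 1 FPKM or more and 20 averaged less than 1 FPKM. The median of the members' mean levels was 0.821 FPKM, against 2.77 FPKM over all genes in the tables, and 14 members averaged fewer than 100 reads per library.

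Among the ligands, Tnfsf12 led. Tnfsf12 was at 5.35, 13.0 and 13.1 FPKM in the T.chuii libraries, 5.75, 14.9 and 11.7 FPKM in the DES libraries and 19.9, 5.27 and 13.4 FPKM in the CON libraries. It was low, at 5.27 to 5.75 FPKM, in T.chuii 1, DES 1 and CON 2 and at 11.7 FPKM or more in the other 6 libraries. Tnfsfm13, a read-through gene that joins Tnfsf12 to Tnfsf13, came next. Tnfsfm13 was at 5.15, 8.19 and 9.45 FPKM in the T.chuii libraries, 7.77, 12.6 and 13.0 FPKM in the DES libraries and 10.7, 7.33 and 11.6 FPKM in the CON libraries. Tnfsf13 (APRIL, a B cell survival factor) was at 9.88, 9.44 and 10.4 FPKM in the T.chuii libraries, 7.04, 7.46 and 7.99 FPKM in the DES libraries and 6.96, 12.8 and 6.80 FPKM in the CON libraries. Every T.chuii library was above every DES library for Tnfsf13, and CON 2 was highest of all.

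Tnfsf9, a T cell costimulatory ligand, followed the same libraries as Tnfsf12. Tnfsf9 was at 1.36, 3.29 and 3.07 FPKM in the T.chuii libraries, 1.79, 3.55 and 2.47 FPKM in the DES libraries and 3.99, 1.49 and 3.93 FPKM in the CON libraries. Its 3 lowest values were again in T.chuii 1, DES 1 and CON 2. Tnf itself, the founding inflammatory cytokine, was at 2.91, 1.15 and 2.93 FPKM in the T.chuii libraries, 1.90, 2.69 and 2.63 FPKM in the DES libraries and 4.04, 5.30 and 1.20 FPKM in the CON libraries. The highest Tnf level was in CON 2 and the lowest were in T.chuii 2 and CON 3, so all 3 groups overlapped. Tnfsf10 (TRAIL, a death ligand) was at 0.829, 0.948 and 0.908 FPKM in the T.chuii libraries, 0.927, 2.38 and 1.22 FPKM in the DES libraries and 0.962, 1.17 and 0.864 FPKM in the CON libraries. DES 2 stood highest for Tnfsf10. The other 4 ligands, Ltb, Eda, Tnfsf13b and Tnfsf8, averaged 0.923, 0.643, 0.205 and 0.183 FPKM.

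The receptor levels ran over a wider range. Tnfrsf12a was at 25.0, 17.9 and 17.1 FPKM in the T.chuii libraries, 24.1, 15.1 and 17.0 FPKM in the DES libraries and 22.2, 30.8 and 19.2 FPKM in the CON libraries. Tnfrsf1a was at 23.4, 14.97 and 14.0 FPKM in the T.chuii libraries, 25.6, 18.5 and 13.6 FPKM in the DES libraries and 20.5, 38.95 and 17.6 FPKM in the CON libraries. CON 2 was the highest library for both, and the groups overlapped. Ltbr, the lymphotoxin beta receptor, was at 12.0, 8.43 and 6.71 FPKM in the T.chuii libraries, 12.9, 9.37 and 5.93 FPKM in the DES libraries and 9.82, 23.7 and 10.2 FPKM in the CON libraries. Tnfrsf21 (a death domain receptor known from neurons) was at 10.1, 8.62 and 8.96 FPKM in the T.chuii libraries, 15.1, 10.8 and 7.49 FPKM in the DES libraries and 10.4, 18.7 and 8.42 FPKM in the CON libraries. Ltbr was highest in CON 2, DES 1 and T.chuii 1 and Tnfrsf21 in CON 2 and DES 1, and the groups overlapped for both.

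Fas, the receptor that starts apoptosis on binding its ligand, had the widest range of the 16 members averaging 1 FPKM or more, with a highest level 7.01 times its lowest. Fas was at 10.6, 20.8 and 4.96 FPKM in the T.chuii libraries, 9.86, 5.72 and 14.6 FPKM in the DES libraries and 5.64, 2.97 and 3.10 FPKM in the CON libraries. Tnfrsf11b (osteoprotegerin, a soluble decoy for the bone cytokine RANKL) was at 5.55, 2.02 and 4.03 FPKM in the T.chuii libraries, 7.24, 3.54 and 5.07 FPKM in the DES libraries and 4.46, 7.05 and 4.13 FPKM in the CON libraries. Tnfrsf19 was at 4.05, 2.85 and 3.08 FPKM in the T.chuii libraries, 3.25, 3.05 and 2.17 FPKM in the DES libraries and 4.49, 5.74 and 3.499 FPKM in the CON libraries. Fas was above 9 FPKM in 4 libraries, T.chuii 1, T.chuii 2, DES 1 and DES 3, while Tnfrsf11b and Tnfrsf19 overlapped between the T.chuii and CON libraries and DES was below CON in FPKM for Tnfrsf19. Tnfrsf18 (GITR, known from regulatory T cells) was at 3.34, 1.77 and 2.28 FPKM in the T.chuii libraries, 2.67, 1.90 and 2.64 FPKM in the DES libraries and 2.02, 5.14 and 2.38 FPKM in the CON libraries. Cd40, a costimulatory receptor of B cells and macrophages, was at 2.00, 0.776 and 1.27 FPKM in the T.chuii libraries, 1.15, 1.47 and 1.37 FPKM in the DES libraries and 1.99, 4.94 and 1.80 FPKM in the CON libraries. Tnfrsf1b (the second TNF receptor, mainly on immune and endothelial cells) was at 1.10, 0.907 and 0.848 FPKM in the T.chuii libraries, 1.17, 0.730 and 0.672 FPKM in the DES libraries and 0.931, 2.01 and 0.670 FPKM in the CON libraries. CON 2 was highest for all 3. The remaining 16 receptors averaged between 0.0937 FPKM (Tnfrsf26) and 0.944 FPKM (Tnfrsf14).

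**Figure D1:**
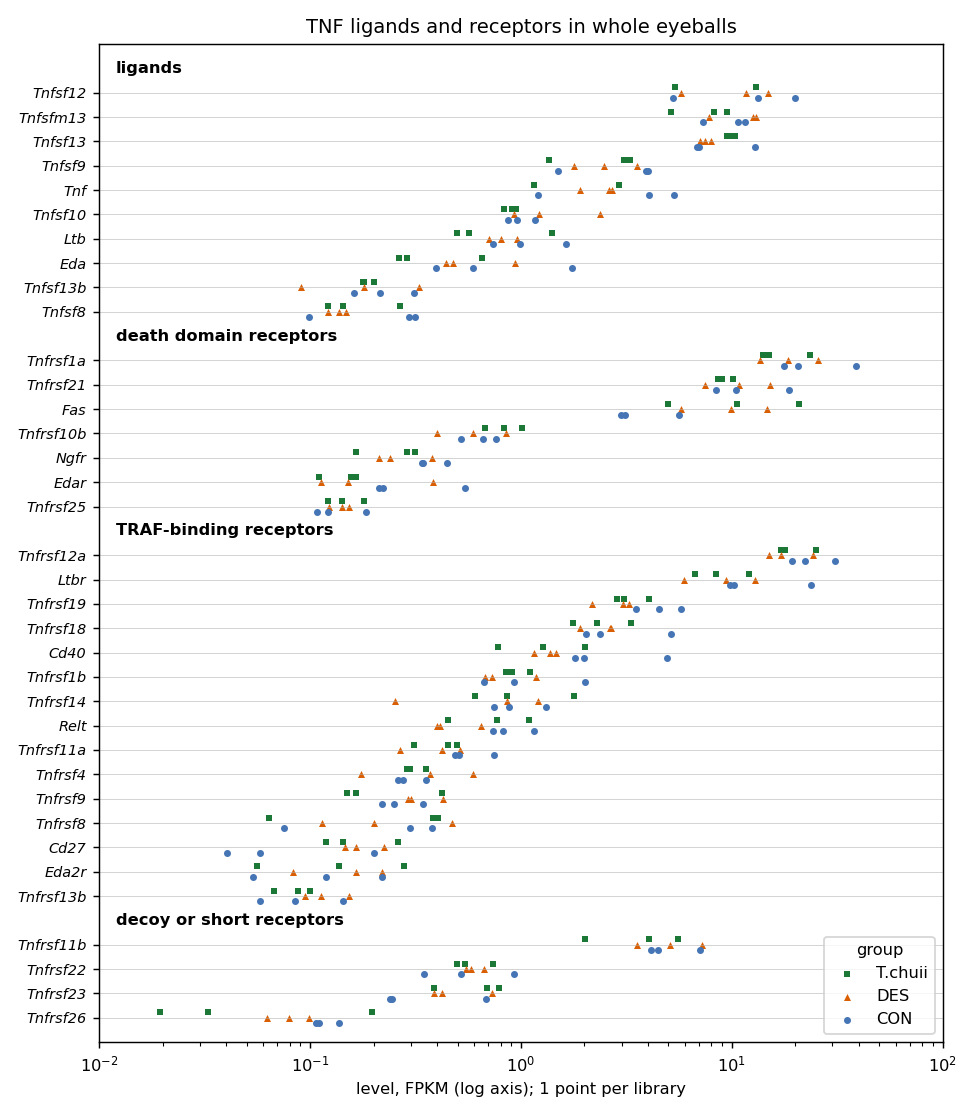
Level of each member in FPKM (log axis), 1 point per library, by class and by group. Tnfrsf12a and Tnfrsf1a lead the receptors at means of 20.9 and 20.8 FPKM, Tnfsf12 leads the ligands, and the groups overlap for most members.

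Several members lie over one another in the genome, which bears on how reads were assigned. Tnfsfm13 (chromosome 11, 69682577 to 69696098, mm10) spans Tnfsf13 (69682577 to 69685554) and Tnfsf12 (69686240 to 69696098), and 57.3% of the 50-base windows of Tnfsf13 transcripts and 46.8% of those of Tnfsf12 also occur in Tnfsfm13. Tnfrsf22 and Tnfrsf23, neighbouring mouse receptors for TRAIL on chromosome 7, share 17.3% and 18.0% of their windows. No other pair of members shared a window. In all, 9 members overlap another gene of the tables: Eda, Tnfrsf4, Tnfrsf12a, Tnfrsf13b, Tnfrsf18, Tnfsf9, Tnfsf12, Tnfsf13 and Tnfsfm13. The levels of these genes, among them Tnfrsf12a with the highest mean, are uncertain to the extent that reads were divided between overlapping genes.

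The make-up of the tissue sample moved with part of the family. All 14 listed corneal and conjunctival epithelium markers and all 14 rod markers were in the tables. T.chuii 1, DES 1 and CON 2 had a ratio of summed corneal to summed rod photoreceptor markers of 4.04, 2.61 and 3.95, against 0.338 to 0.867 in the other 6 libraries. These 3 libraries, 1 from each group, held the 3 highest values in CPM (read counts scaled to library size by trimmed means) for 11 of the 36 members: Eda, Ltbr, Tnfrsf1a, Tnfrsf1b, Tnfrsf10b, Tnfrsf11a, Tnfrsf11b, Tnfrsf12a, Tnfrsf14, Tnfrsf21 and Tnfrsf26. That is 30.6% of the members, against 13.1% of all 21287 genes tested. They held the 3 lowest values for Tnfrsf8, Tnfsf12, Tnfsf9 and Tnfsfm13, which is 4 of 36 (11.1%), against 13.8% of all genes tested. By class, 10 of the 26 receptors and 1 of the 10 ligands were highest in these libraries, and 1 receptor and 3 ligands were lowest. Of the lowest ligands, Tnfsf12 and Tnfsfm13 overlap at the same locus and share sequence, so they are not separate cases. Corneal markers also ran lower in the T.chuii group: all 14 were lower in T.chuii vs DES and in T.chuii vs CON, with median log2 fold changes of -0.61 and -0.77, 0 called by limma-voom, and 0 and 2 at an unadjusted p under 0.05. Without the 3 libraries all 14 were still lower, with medians of -0.78 and -0.82. In DES vs CON 1 was higher and 13 lower, but 13 were higher and 1 lower without CON 2. What part corneal RNA had in the member differences below was not tested. In a whole-organ sample, fewer cells of a type and less RNA per cell cannot be told apart.

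Ltbr shows the pattern among receptors. Ltbr had 29.5, 19.6 and 13.9 CPM in the T.chuii libraries, 30.4, 18.2 and 14.8 CPM in the DES libraries and 19.9, 56.9 and 21.1 CPM in the CON libraries. Tnfrsf1a had 58.8, 35.6 and 29.9 CPM in the T.chuii libraries, 61.6, 36.7 and 34.7 CPM in the DES libraries and 42.5, 95.5 and 37.0 CPM in the CON libraries. In both, CON 2 stood above all others and the other 2 libraries came next, while the remaining 6 reached at most 21.1 CPM for Ltbr and 42.5 CPM for Tnfrsf1a. Eda (ectodysplasin, a ligand of skin appendages and glands) had 3.80, 1.64 and 1.34 CPM in the T.chuii libraries, 5.20, 2.19 and 2.60 CPM in the DES libraries and 2.92, 9.80 and 1.93 CPM in the CON libraries. The 3 libraries held 3.80 to 9.80 CPM of Eda, against 1.34 to 2.92 CPM in the others. Tnfrsf8 (CD30, a receptor of activated lymphocytes) ran the other way, with 0.256, 1.55 and 1.30 CPM in the T.chuii libraries, 0.441, 1.5 and 0.828 CPM in the DES libraries and 1.26, 0.310 and 1.01 CPM in the CON libraries. Its values were 0.256 to 0.441 CPM in the 3 libraries and 0.828 to 1.55 CPM in the other 6. Eda and Tnfrsf8 were named after their values were seen.

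**Figure D2:**
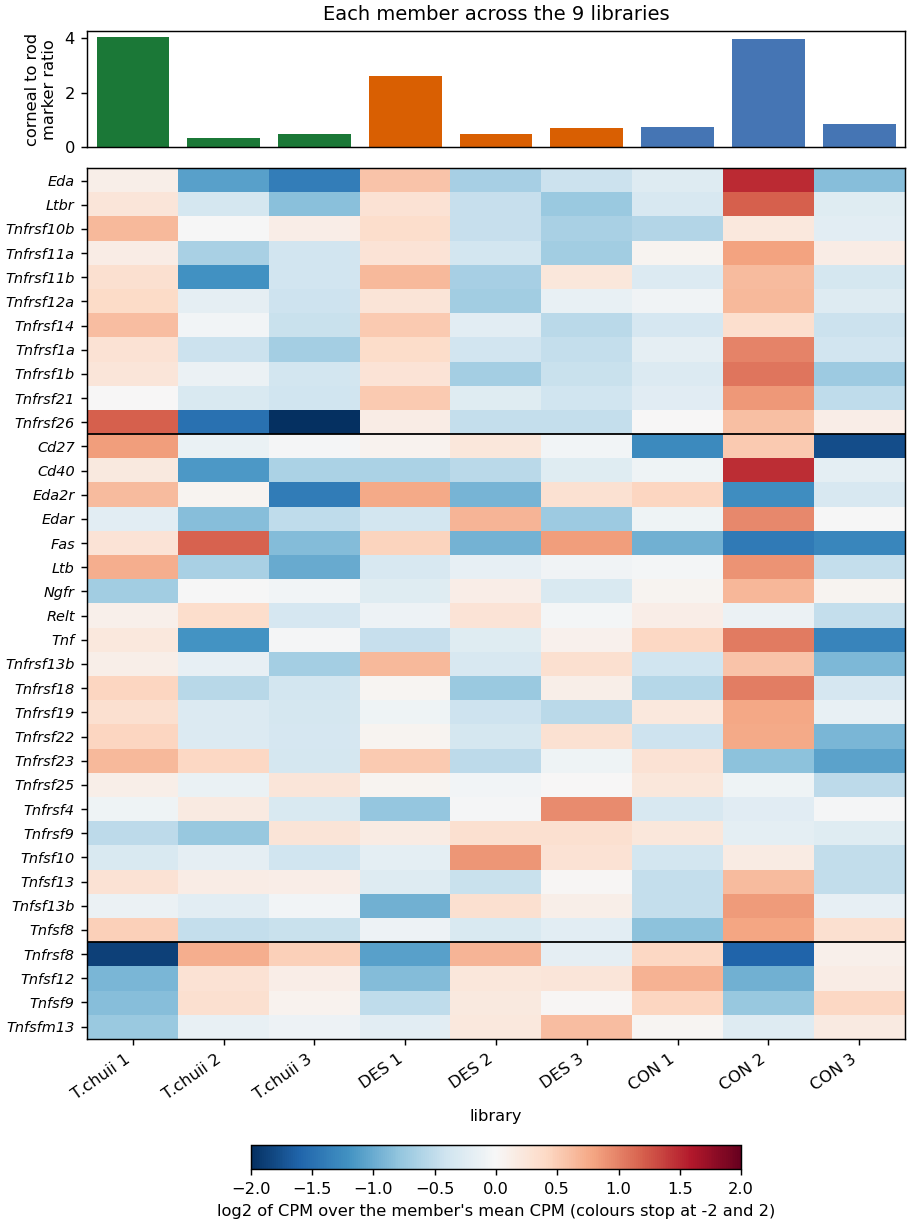
Upper panel, ratio of summed corneal to summed rod markers in each library. Lower panel, log2 of each member's CPM over its own mean in the same libraries; the 11 members above the first line are highest, and the 4 below the second line lowest, in T.chuii 1, DES 1 and CON 2, the libraries whose ratio is 2.61 or more.

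The first comparison asked how the family differed after scopolamine, DES against CON. Fas was higher, at 18.4 ± 9.70 CPM in DES and 6.49 ± 1.10 CPM in CON (SD, n = 3 libraries each), and the costimulatory receptor Cd40 was lower, at 2.50 ± 0.356 CPM in DES and 5.26 ± 3.70 CPM in CON. Without CON 2 the log2 fold change of Cd40 was -0.34. Neither gene passed the test over all genes. No member passed an adjusted p of 0.05 by limma-voom, and 1 of 36 (Fas) had an unadjusted p just under 0.05, where 0% of the 21287 genes tested passed the adjusted threshold and 1.1% had an unadjusted p under 0.05. With limma-trend on log2(FPKM + 1), 0 members passed the adjusted threshold and 2, Fas and Relt, had an unadjusted p under 0.05, where 1.46% of all genes did. Of the 36 members, 15 were higher in DES and 21 lower, with a median log2 fold change of -0.10, while 47.6% of all genes were higher, with a median of -0.02. Without CON 2, 24 of the 36 were higher, where 51.8% of all genes were. Without the 3 libraries of high corneal to rod ratio 22 were higher (48.0% of all genes), and with that ratio as a covariate 16 (45.3% of all genes). In CPM, 2 members kept DES and CON apart: Fas, with every DES library above every CON library (2.0% of all genes did so), and Cd40, with every DES library below (1.65% of all genes). In FPKM Fas again stood above (1.34% of all genes), and 4 members, Cd40, Relt, Tnfrsf19 and Tnfrsf26, stood below (2.7% of all genes). The adjusted p was 1 for each member named below. Where leaving out 1 library turned the sign of a log2 fold change or moved it by over 1.5 times, its value without that library follows the standard error.

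Fas had 20.6, 7.84 and 26.9 CPM in DES and 7.73, 5.67 and 6.07 CPM in CON. All 3 DES values were above the CON values, although DES 2 exceeded CON 1 by little. Fas gave a log2 fold change of 1.30 ± 0.59 (SE). Tnfsf10 had 5.11, 10.8 and 7.18 CPM in DES and 4.58, 6.59 and 4.18 CPM in CON. The groups overlapped, and Tnfsf10 gave a log2 fold change of 0.56 ± 0.33 (SE; 0.27 without DES 2). Cd27 (a T cell costimulatory receptor) and Tnfrsf23 were the others with the smallest p among the higher members. Cd27 had 0.301, 0.337 and 0.276 CPM in DES and 0.119, 0.413 and 0.0839 CPM in CON, values that rest on 5 to 24 reads over the 9 libraries. Cd27 gave a log2 fold change of 0.87 ± 0.56 (SE; 1.53 without CON 2 and 0.40 without CON 3). Tnfrsf23 had 2.73, 1.33 and 1.79 CPM in DES and 2.33, 1.08 and 0.906 CPM in CON. The groups overlapped for both, and Tnfrsf23 gave a log2 fold change of 0.52 ± 0.45 (SE; 0.91 without CON 1, 0.25 without CON 3, 0.24 without DES 1 and 0.80 without DES 2).

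On the lower side, Tnfrsf19 had 16.2, 13.0 and 11.9 CPM in DES and 20.0, 29.6 and 15.6 CPM in CON. Tnfrsf19 (TROY), a receptor of epithelial and neural tissue, overlapped through DES 1 and CON 3 and gave a log2 fold change of -0.62 ± 0.30 (SE; -0.36 without CON 2). Cd40 had 2.23, 2.36 and 2.90 CPM in DES and 3.25, 9.54 and 3.00 CPM in CON. The Cd40 values did not overlap, CON 2 lay far above the other CON libraries, and the gene gave a log2 fold change of -0.89 ± 0.49 (SE). Tnfrsf11a had 3.55, 2.27 and 1.82 CPM in DES and 3.06, 5.15 and 3.27 CPM in CON. Tnfrsf11a, the receptor for RANKL, gave a log2 fold change of -0.60 ± 0.36 (SE; -0.36 without CON 2), with DES 1 inside the CON range. Ngfr had 0.923, 1.20 and 0.883 CPM in DES and 1.14, 1.74 and 1.14 CPM in CON. Ngfr, the low-affinity neurotrophin receptor, overlapped and gave a log2 fold change of -0.40 ± 0.34 (SE; -0.19 without CON 2). Tnf had 3.51, 4.11 and 5.16 CPM in DES and 6.43, 9.97 and 1.95 CPM in CON. The CON values of Tnf enclosed all the DES values, and Tnf gave a log2 fold change of -0.24 ± 0.58 (SE; -0.07 without CON 1, 0.29 without CON 2, -0.95 without CON 3, -0.11 without DES 1 and -0.39 without DES 3), turning sign without CON 2.

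The second comparison asked how the family differed when the microalga was fed to scopolamine-injected mice, T.chuii against DES. The ligand Tnfsf13 was higher, at 18.0 ± 1.14 CPM in T.chuii and 13.5 ± 2.21 CPM in DES (SD, n = 3 libraries each), and the death ligand Tnfsf10 was lower, at 4.80 ± 0.375 CPM in T.chuii and 7.70 ± 2.89 CPM in DES. Without DES 2 the log2 fold change of Tnfsf10 was -0.30. Neither gene passed the test over all genes. No member and no gene passed an adjusted p of 0.05 by limma-voom (0% of genes), and no member had an unadjusted p under 0.05, where 1.09% of all genes did; on log2(FPKM + 1) the counts of members were also 0, and 1.3% of all genes had an unadjusted p under 0.05. Of the members, 13 were higher and 23 lower in T.chuii, with a median log2 fold change of -0.05, while 45.1% of all genes were higher, with a median of -0.03. Without T.chuii 3, 21 members were higher, and the share of all genes higher in that fit is not given here. Without the 3 libraries of high corneal to rod ratio 12 were higher (49.3% of all genes), and with that ratio as a covariate 16 (44.5% of all genes). In CPM every T.chuii library lay above every DES library for 1 member, Tnfsf13 (2.3% of all genes), and below for none (2.49% of all genes); in FPKM it was again Tnfsf13 alone above (1.91% of all genes) and none below (1.68%). Same-numbered T.chuii and DES libraries correlated in their deviations at 0.63, 0.41 and 0.20, although T.chuii 3 correlated more with DES 2 (0.55) than with DES 3, and the numbers in the file headers are not those of the titles. A fit of these 6 libraries with the replicate number as a block called 2 genes, neither a member. In that paired fit 4 members, Eda, Tnfrsf11b, Tnfsf10 and Tnfsfm13, had an unadjusted p under 0.05, where 6.05% of 20931 genes did. The pairs were taken from correlations in these same data, not from a label, so these p-values are descriptive only. DES 1 and T.chuii 1 also correlated with CON 2, at 0.54 and 0.50. T.chuii 1, DES 1 and CON 2 are the libraries of high corneal to rod ratio, whose part in the correlations was not tested. The adjusted p from limma-voom over all 9 libraries was 1 for each member named below.

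Tnfsf10 had 4.78, 5.19 and 4.44 CPM in T.chuii and 5.11, 10.8 and 7.18 CPM in DES. DES 2 and DES 3 were high and DES 1 lay within the T.chuii range, and Tnfsf10 gave a log2 fold change of -0.63 ± 0.33 (SE). Tnfsfm13 had 13.4, 20.2 and 20.8 CPM in T.chuii and 19.3, 25.8 and 34.3 CPM in DES. The groups overlapped, and Tnfsfm13 gave a log2 fold change of -0.52 ± 0.27 (SE; -0.32 without DES 3 and -0.30 without T.chuii 1). Tnfrsf9 had 0.536, 0.458 and 0.926 CPM in T.chuii and 0.862, 0.961 and 0.966 CPM in DES. Tnfrsf9, a costimulatory receptor of activated T cells and the partner of Tnfsf9, gave a log2 fold change of -0.59 ± 0.36 (SE; -0.35 without T.chuii 2 and -0.89 without T.chuii 3), with T.chuii 3 within the DES range. Tnfrsf11b had 18.2, 6.28 and 11.2 CPM in T.chuii and 22.8, 9.20 and 16.9 CPM in DES. Both groups spread widely and overlapped, and Tnfrsf11b gave a log2 fold change of -0.47 ± 0.46 (SE; -0.17 without DES 1, -0.85 without DES 2, -0.82 without T.chuii 1 and -0.06 without T.chuii 2).

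Among members higher in T.chuii, Tnfsf13 had 19.3, 17.5 and 17.2 CPM in T.chuii and 13.2, 11.5 and 15.9 CPM in DES. The values did not overlap, and Tnfsf13 gave a log2 fold change of 0.43 ± 0.31 (SE). The read-through gene that overlaps Tnfsf13 had the opposite sign, as given above. Summed over Tnfsf12, Tnfsf13 and Tnfsfm13, the locus had 43.2, 62.1 and 59.8 CPM in T.chuii and 43.4, 60.6 and 73.6 CPM in DES. These sums overlapped, so the locus as a whole did not separate the groups as Tnfsf13 alone did; how reads were divided between the 3 genes was not tested. Tnfrsf10b had 3.75, 2.38 and 2.61 CPM in T.chuii and 3.03, 1.74 and 1.52 CPM in DES. Tnfrsf10b, the mouse death receptor for TRAIL, overlapped and gave a log2 fold change of 0.50 ± 0.36 (SE; 0.80 without DES 1, 0.33 without DES 3 and 0.32 without T.chuii 1). Tnfrsf19 had 21.7, 14.3 and 13.6 CPM in T.chuii and 16.2, 13.0 and 11.9 CPM in DES. Tnfrsf19 gave a log2 fold change of 0.23 ± 0.30 (SE; 0.36 without DES 1, 0.04 without T.chuii 1 and 0.36 without T.chuii 3), and the groups overlapped. Tnfrsf23 had 2.98, 2.53 and 1.49 CPM in T.chuii and 2.73, 1.33 and 1.79 CPM in DES. Tnfrsf23 gave a log2 fold change of 0.26 ± 0.44 (SE; 0.54 without DES 1, 0.02 without DES 2, 0.07 without T.chuii 1 and 0.56 without T.chuii 3), also with overlap. Tnf had 5.61, 2.12 and 4.78 CPM in T.chuii and 3.51, 4.11 and 5.16 CPM in DES. T.chuii 2 was the lowest and T.chuii 1 the highest of these 6 libraries, and Tnf gave a log2 fold change of -0.12 ± 0.59 (SE; -0.25 without DES 1, 0.02 without DES 3, -0.37 without T.chuii 1, 0.34 without T.chuii 2 and -0.28 without T.chuii 3), turning sign without DES 3 or T.chuii 2.

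In T.chuii against CON, Fas was higher, at 20.3 ± 13.1 CPM in T.chuii and 6.49 ± 1.10 CPM in CON (SD, n = 3 libraries each), and the ectodysplasin receptor Edar was lower, at 0.837 ± 0.185 CPM in T.chuii and 1.53 ± 0.672 CPM in CON. Without CON 2 the log2 fold change of Edar was -0.47. Neither Fas nor Edar passed the test over all genes. The comparison, which shares its libraries with both above, gave 0 members and 0% of genes past an adjusted p of 0.05 by limma-voom. Fas alone of the 36 had an unadjusted p under 0.05, where 4.28% of all genes did. On log2(FPKM + 1), 0 members passed the adjusted threshold and Fas and Cd40 had an unadjusted p under 0.05, where 5.06% of all genes did. Of the members 12 were higher and 24 lower, with a median log2 fold change of -0.20, while 44.6% of all genes were higher, with a median of -0.04. Without CON 2, 20 members were higher, where 43.5% of all genes were. Without the 3 libraries of high corneal to rod ratio 16 were higher (49.0% of all genes), and with that ratio as a covariate 13 (41.2% of all genes). In CPM the groups stayed apart for 1 member above CON, Fas (5.45% of all genes), and for 2 below CON, Edar and Ngfr (2.97% of all genes). In FPKM Edar and Ngfr again stood below (7.9% of all genes) and 0 members above (3.6%), since Fas in T.chuii 3, at 4.96 FPKM, was under the 5.64 FPKM of CON 1. The adjusted p was 0.986 for each member named below, apart from 0.988 for Tnf.

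Fas had 18.2, 34.3 and 8.30 CPM in T.chuii and 7.73, 5.67 and 6.07 CPM in CON. T.chuii 3 lay just above CON 1 and the other 2 T.chuii libraries far above, and Fas gave a log2 fold change of 1.42 ± 0.59 (SE). Cd27 had 0.512, 0.262 and 0.284 CPM in T.chuii and 0.119, 0.413 and 0.0839 CPM in CON. Cd27 overlapped and gave a log2 fold change of 1.00 ± 0.56 (SE; 1.66 without CON 2 and 0.53 without CON 3). Tnfrsf23 had 2.98, 2.53 and 1.49 CPM in T.chuii and 2.33, 1.08 and 0.906 CPM in CON. CON 1 lay within the T.chuii range, and Tnfrsf23 gave a log2 fold change of 0.78 ± 0.45 (SE; 0.51 without CON 3). Tnfrsf10b had 3.75, 2.38 and 2.61 CPM in T.chuii and 1.59, 2.75 and 2.06 CPM in CON. The groups overlapped, and Tnfrsf10b gave a log2 fold change of 0.44 ± 0.36 (SE; 0.26 without CON 1 and 0.25 without T.chuii 1).

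For the lower members, Cd40 had 3.94, 1.55 and 2.23 CPM in T.chuii and 3.25, 9.54 and 3.00 CPM in CON. T.chuii 1 lay within the CON range, and Cd40 gave a log2 fold change of -0.94 ± 0.49 (SE; -0.39 without CON 2 and -0.58 without T.chuii 2). Edar had 1.02, 0.654 and 0.832 CPM in T.chuii and 1.11, 2.31 and 1.17 CPM in CON. Edar, the death domain receptor for ectodysplasin, did not overlap and gave a log2 fold change of -0.81 ± 0.45 (SE). Tnfrsf11a had 3.28, 1.88 and 2.25 CPM in T.chuii and 3.06, 5.15 and 3.27 CPM in CON. T.chuii 1 lay within the CON range, and Tnfrsf11a gave a log2 fold change of -0.64 ± 0.36 (SE; -0.40 without CON 2 and -0.41 without T.chuii 2). Tnfrsf26 had 0.699, 0.109 and 0.0567 CPM in T.chuii and 0.308, 0.465 and 0.336 CPM in CON. This short receptor had 3 to 30 reads over the 9 libraries, T.chuii 1 was its highest library and T.chuii 3 its lowest, and it gave a log2 fold change of -1.10 ± 0.71 (SE; -2.07 without T.chuii 1 and -0.37 without T.chuii 3). Ngfr had 0.675, 1.09 and 1.06 CPM in T.chuii and 1.14, 1.74 and 1.14 CPM in CON. The Ngfr values were close but did not overlap, with T.chuii 2 just below CON 1. Tnf had 5.61, 2.12 and 4.78 CPM in T.chuii and 6.43, 9.97 and 1.95 CPM in CON. CON enclosed T.chuii for Tnf, which gave a log2 fold change of -0.36 ± 0.58 (SE; -0.19 without CON 1, 0.17 without CON 2, -1.07 without CON 3, -0.62 without T.chuii 1 and 0.12 without T.chuii 2), turning sign without CON 2 or T.chuii 2.

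**Figure D3:**
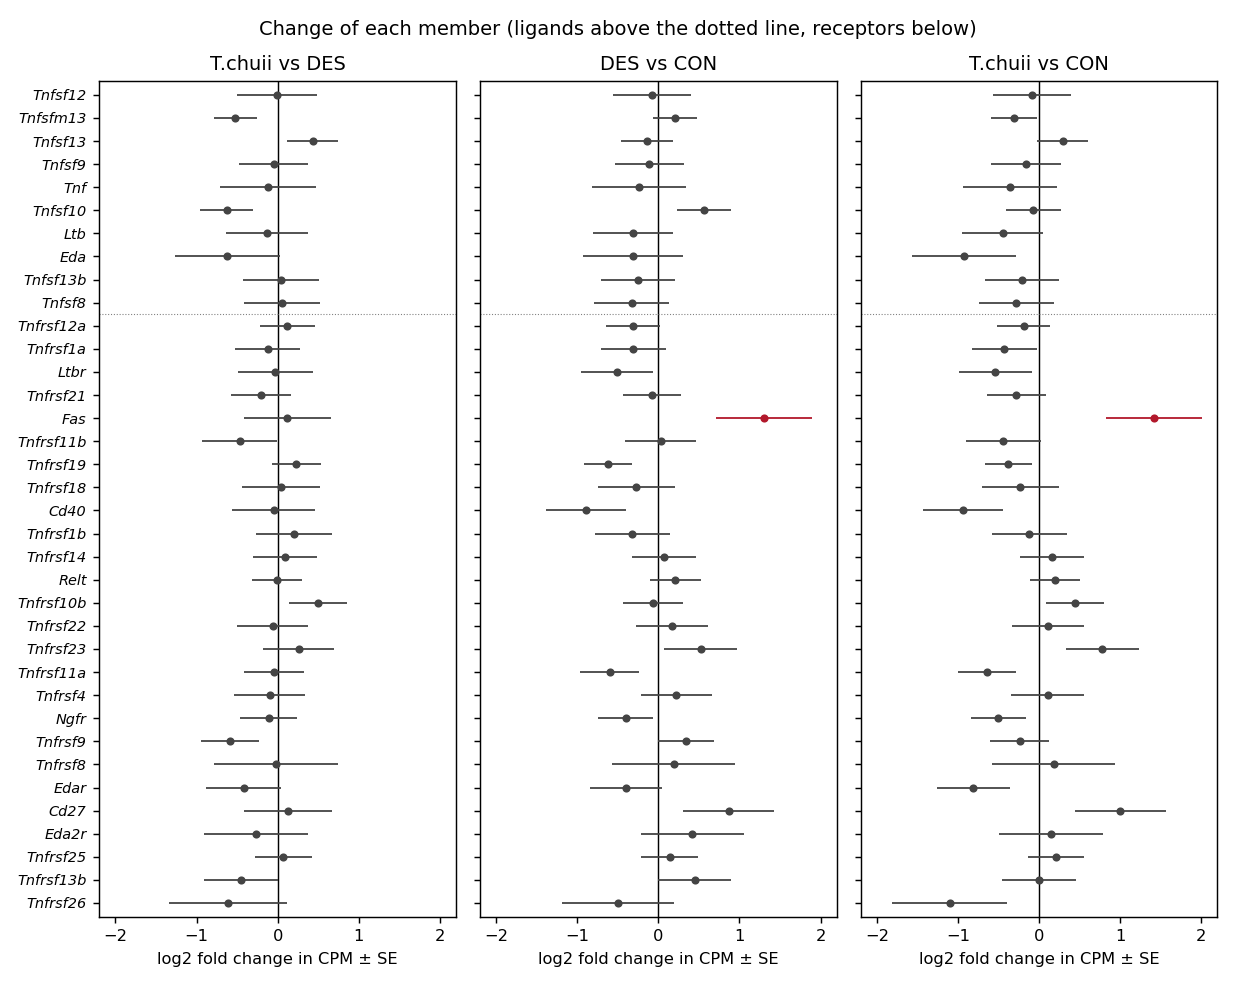
Log2 fold change in CPM with its standard error for each of the 36 members in each comparison, ligands above the dotted line and receptors below, each ordered by mean FPKM. Fas, in red, is the member with an unadjusted p under 0.05, at 1.30 for DES vs CON and 1.42 for T.chuii vs CON; no member passed the adjusted threshold.

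Fas lies at chromosome 19, 34290647 to 34327775 (mm10), and its level was high in the libraries with many lens transcripts. The 9 of 13 lens fibre markers in the tables summed to 23000, 52800 and 9680 CPM in T.chuii, 39100, 216 and 34400 CPM in DES and 24.1, 65.8 and 27.4 CPM in CON. All 9 were higher in DES than in CON and in T.chuii than in CON, and 8 and 9 of them had an unadjusted p under 0.05. The 4 libraries of highest lens sum, T.chuii 1, T.chuii 2, DES 1 and DES 3, were also the 4 of highest Fas CPM, at 18.2 to 34.3 CPM. Among the members this held for Fas alone, and it held for 1.77% of all genes tested. T.chuii 3 ranked 5 and DES 2 ranked 6 for both. DES 2, whose lens sum of 216 CPM was the lowest outside CON, had 7.84 CPM of Fas, while T.chuii 3 had 8.30 CPM at a lens sum of 9680 CPM. Within CON the order was the other way for CON 2, with the highest lens sum and the lowest Fas, at 5.67 CPM. Without DES 2 the log2 fold change of Fas in DES vs CON was 1.89. What part lens RNA had in the Fas values was not tested. Skeletal muscle markers (14 of 14 in the tables) were also higher in the injected groups, with 1 of 14 at an unadjusted p under 0.05 in DES vs CON and 13 of 14 in T.chuii vs CON and 0 called by limma-voom, though without T.chuii 1, DES 1 and CON 2 only 5 of 14 were higher in DES vs CON. They summed to 3740 to 18500 CPM in T.chuii, 1820 to 9140 CPM in DES and 925 to 2710 CPM in CON, and their part was not tested.

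**Figure D4:**
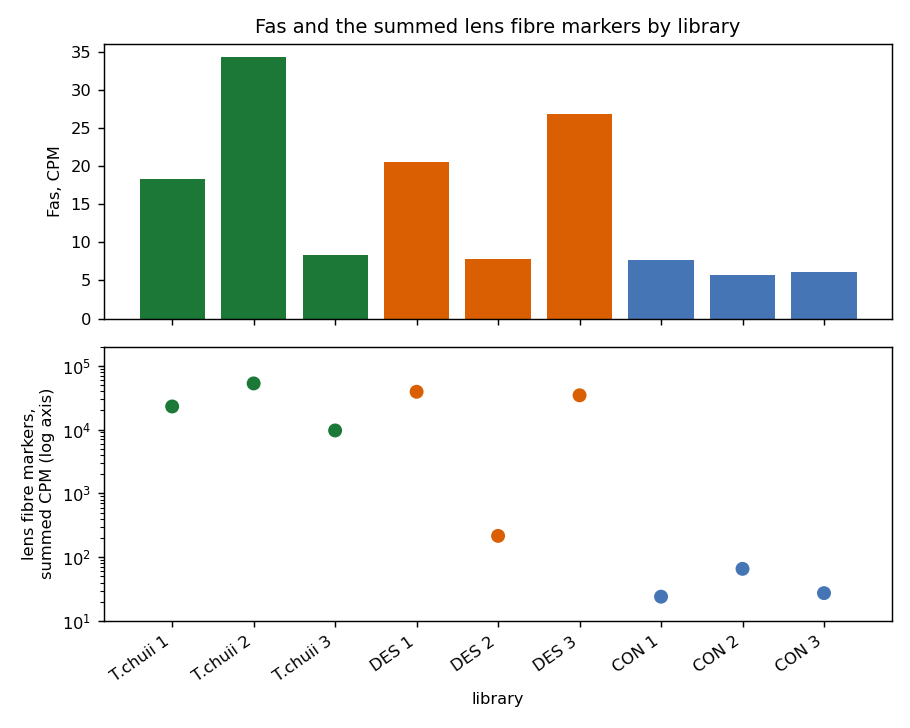
Upper panel, Fas in CPM in each library; lower panel, the summed CPM of 9 lens fibre markers on a log axis. The 4 libraries with 18.2 CPM or more of Fas are the 4 with the highest lens sums, while T.chuii 3 and DES 2, with lens sums of 9680 and 216 CPM, have 8.30 and 7.84 CPM of Fas.

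Relt, a receptor of blood and lymphoid cells in which counts and FPKM disagreed, was picked out after its values were seen. Relt had 3.05, 3.64 and 2.27 CPM in the T.chuii libraries, 2.67, 3.44 and 2.76 CPM in the DES libraries and 3.13, 2.63 and 2.05 CPM in the CON libraries. The groups overlapped in CPM. Relt was at 0.450, 1.09 and 0.767 FPKM in the T.chuii libraries, 0.411, 0.644 and 0.402 FPKM in the DES libraries and 1.15, 0.818 and 0.734 FPKM in the CON libraries. In FPKM every DES library was below every CON library, and in DES vs CON limma-trend on log2(FPKM + 1) gave a log2 fold change of -0.35 ± 0.15 (SE) and an adjusted p of 1. The length that the deposited count and FPKM imply together was 6.19, 3.44 and 3.11 kb in T.chuii, 6.26, 5.96 and 6.30 kb in DES and 2.94, 2.90 and 2.94 kb in CON. It was about 6 kb in all DES libraries and T.chuii 1 and about 3 kb in the others. The implied length differed over 1.5-fold between libraries for 4 members, Tnfrsf14, Relt, Edar and Eda2r (11.1%), against 5.22% of all genes tested. For Tnfrsf14, the receptor known as HVEM, it ran from 1.65 to 5.18 kb, with the highest in DES 3, the library whose Tnfrsf14 level was lowest at 0.254 FPKM.

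**Figure D5:**
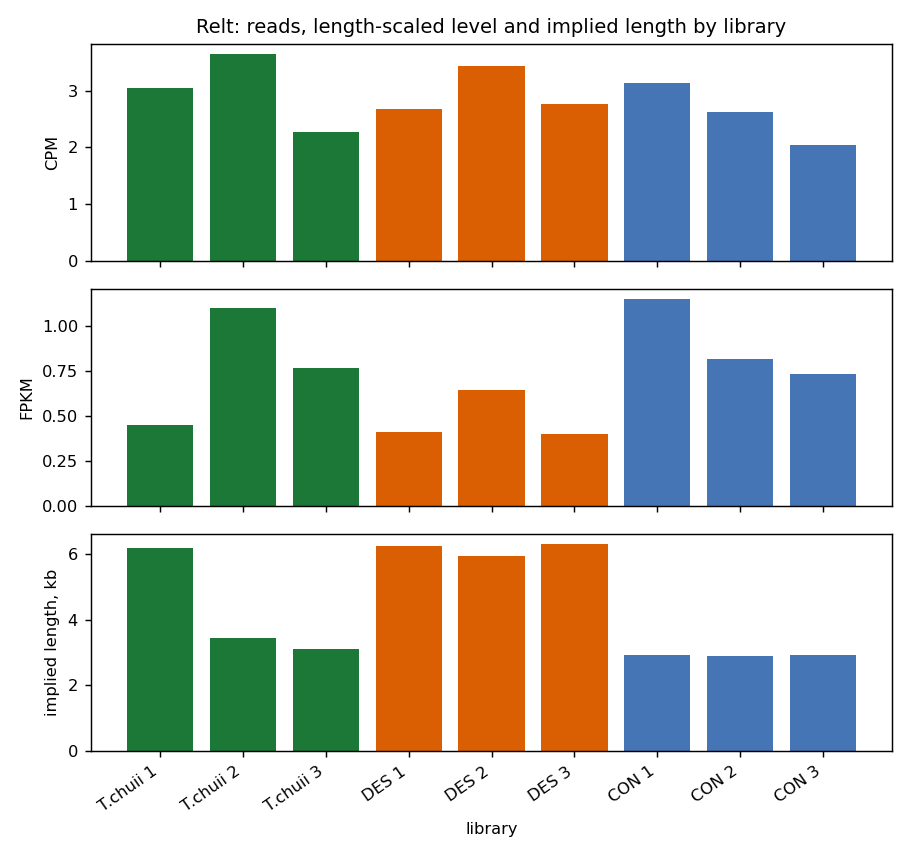
Relt in each library as CPM, as deposited FPKM and as the transcript length implied by the 2 deposited values, in kb. CPM overlaps between groups, FPKM is lower in all DES libraries than in CON, and the implied length is 5.96 to 6.30 kb in DES and 2.90 to 2.94 kb in CON.

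Genes that carry the receptors' signals did not pass the threshold either. Of 25 TNF receptor adaptors and kinases, such as Traf2, Ripk1 and Casp8, none was called by limma-voom in any comparison and none had an unadjusted p under 0.05. In DES vs CON 5 were higher and 20 lower, in T.chuii vs DES 4 and 21, and in T.chuii vs CON 4 and 21. Without CON 2, 14 were higher and 11 lower in DES vs CON, and 8 and 17 in T.chuii vs CON. Without CON 2, DES 1 and T.chuii 1 these counts were 9 and 16, and 4 and 21, and with the corneal to rod ratio as a covariate 8 and 17, and 4 and 21. The shares of all genes higher in these fits are given with each comparison above. Fadd, the adaptor that links Fas to caspases, averaged 2.45 ± 0.449 CPM in DES and 3.54 ± 0.864 CPM in CON (SD, n = 3 libraries each; log2 fold change -0.53 ± 0.30 SE, adjusted p = 1 by limma-voom). Traf5 averaged 19.2 ± 4.45 CPM in T.chuii and 31.5 ± 12.9 CPM in CON (-0.68 ± 0.35, adjusted p = 0.986 by limma-voom), and Birc2, an inhibitor of apoptosis bound to TNF receptors, averaged 49.0 ± 8.21 CPM in T.chuii and 57.9 ± 1.82 CPM in DES (-0.25 ± 0.19, adjusted p = 1 by limma-voom). The smallest p on the higher side belonged to Traf1 in DES vs CON (0.17 ± 0.40), Fadd in T.chuii vs DES (0.34 ± 0.31) and Tab2 in T.chuii vs CON (0.13 ± 0.20), all log2 fold changes with SE.

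Of 20 NF-kB and linear ubiquitin genes, 1 was higher and 19 lower in DES vs CON, 8 and 12 in T.chuii vs DES and 1 and 19 in T.chuii vs CON, with 0 called by limma-voom. Without CON 2, 14 were higher and 6 lower in DES vs CON and 11 and 9 in T.chuii vs CON. Without CON 2, DES 1 and T.chuii 1 these counts were 10 and 10, and 6 and 14, and with the corneal to rod ratio as a covariate 3 and 17, and 5 and 15. Cyld, a deubiquitinase that restrains NF-kB, was the 1 gene with an unadjusted p under 0.05, in T.chuii vs CON. It averaged 36.8 ± 5.98 CPM in T.chuii and 52.9 ± 12.2 CPM in CON (log2 fold change -0.51 ± 0.23 SE, adjusted p = 0.986 by limma-voom). Against DES, at 50.6 ± 5.90 CPM, its log2 fold change was -0.47 ± 0.23. Nfkbia, the inhibitor that NF-kB itself induces, averaged 143 ± 53.0 CPM in T.chuii, 97.5 ± 23.9 CPM in DES and 102 ± 17.7 CPM in CON, differences of 0.52 ± 0.30 and 0.44 ± 0.30 on the log2 scale against DES and CON. In DES vs CON the smallest p on the lower side belonged to Tnip2, with a log2 fold change of -0.30 ± 0.25 (SE), and the 1 gene on the higher side was Chuk, at 0.00 ± 0.23.

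Of the 5 genes that shed or process TNF, Adam17, Adam10, Adam8, Rhbdf1 and Rhbdf2, 1 was higher and 4 lower in DES vs CON and all 5 were lower in both other comparisons, with 0 called by limma-voom and 0 at an unadjusted p under 0.05. Without CON 2, 3 were higher and 2 lower in DES vs CON. This was 1 and 4 without CON 2, DES 1 and T.chuii 1, and 0 and 5 with the corneal to rod ratio as a covariate. Rhbdf1 averaged 29.8 ± 14.7 CPM in T.chuii, 40.1 ± 16.4 CPM in DES and 58.3 ± 39 CPM in CON (SD, n = 3 libraries each), spreads as wide as the differences between groups. In DES vs CON, Adam10 had a log2 fold change of -0.22 ± 0.23 (SE) and Adam8 of 0.03 ± 0.36.

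Of 24 known NF-kB and TNF target genes, 20 were in the tables, and Il6, Ccl5, Csf2 and Sele were not analysed here. None was called by limma-voom. In DES vs CON 7 were higher and 13 lower, in T.chuii vs DES 11 and 9, and in T.chuii vs CON 6 and 14, and 1 gene in each, always on the lower side, had an unadjusted p under 0.05. Without CON 2, 9 were higher and 11 lower in DES vs CON and 11 and 9 in T.chuii vs CON. Without CON 2, DES 1 and T.chuii 1 these counts were 10 and 10, and 5 and 15, and with the corneal to rod ratio as a covariate 10 and 10, and 8 and 12. Ptgs2, the inducible cyclooxygenase, averaged 1.95 ± 0.914 CPM in T.chuii, 1.47 ± 0.375 CPM in DES and 5.32 ± 2.71 CPM in CON. Its log2 fold change was -1.74 ± 0.46 in DES vs CON (adjusted p = 1 by limma-voom) and -1.41 ± 0.45 in T.chuii vs CON (adjusted p = 0.986 by limma-voom). Ccl20, a chemokine for dendritic and T cells, averaged 0.226 ± 0.231 CPM in T.chuii, 1.03 ± 0.969 CPM in DES and 0.324 ± 0.176 CPM in CON, and had a log2 fold change of -2.16 ± 0.93 in T.chuii vs DES (adjusted p = 1 by limma-voom) and of 1.33 ± 0.89 in DES vs CON. Sod2, a mitochondrial antioxidant enzyme, averaged 215 ± 66.6 CPM in T.chuii and 146 ± 16.6 CPM in CON (0.53 ± 0.26, adjusted p = 0.986 by limma-voom). Nfkbia, Tnfaip3 and Birc3 stand in 2 of these lists.

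Many receptors of the family are known from immune cells, so markers of those cells are given beside them. T cell markers were sparse: 4 of 10 were in the tables, without Cd3d, Cd3e, Cd3g, Cd8a, Cd8b1 and Cd2, and these 4 summed to 1.46 to 2.52 CPM in T.chuii, 2.11 to 3.25 CPM in DES and 1.73 to 4.27 CPM in CON. Of 8 B cell markers 2 were in the tables, summing to 5.59 to 12.8 CPM in T.chuii, 5.54 to 16.9 CPM in DES and 5.29 to 11.9 CPM in CON. Of 8 neutrophil markers 4 were present, at 10.7 to 15.5 CPM in T.chuii, 7.10 to 49.8 CPM in DES and 8.08 to 25.1 CPM in CON. All 12 macrophage and microglia markers were present, at 160 to 261 CPM in T.chuii, 128 to 174 CPM in DES and 154 to 242 CPM in CON. The sums overlapped between groups for all 4 cell types. Of the 12 macrophage and microglia markers, 0 were higher and 12 lower in DES vs CON (1 and 11 without CON 2), the comparison in which Cd40 was lower, 10 and 2 in T.chuii vs DES, and 6 and 6 in T.chuii vs CON (10 and 2 without CON 2). Without CON 2, DES 1 and T.chuii 1 the counts were 1 and 11, 9 and 3, and 4 and 8 in the same order. With the corneal to rod ratio as a covariate they were 1 and 11, 11 and 1, and 9 and 3. None of the 12 had an unadjusted p under 0.05 or was called by limma-voom, and their part in the Cd40 values was not tested. In DES vs CON, where 47.6% of all genes were higher, the other lists did not all run lower. There the T cell markers had 3 higher and 1 lower, the B cell markers 2 and 0, and the neutrophil markers 2 and 2. Without CON 2 these counts were 4 and 0, 1 and 1, and 2 and 2. Of the T cell markers, 1 was higher at an unadjusted p under 0.05 by limma-voom, and 0 were called. Keratocyte and scleral fibroblast markers (12 of 12) summed to 2610 to 5720 CPM in T.chuii, 2410 to 4620 CPM in DES and 4400 to 6500 CPM in CON, endothelial markers (10 of 10) to 135 to 188 CPM in T.chuii, 122 to 208 CPM in DES and 124 to 145 CPM in CON, and 3 of 7 adipocyte markers to 84.4 to 1560 CPM in T.chuii, 11.7 to 43.5 CPM in DES and 4.67 to 29.5 CPM in CON. Of the keratocyte and scleral fibroblast markers, 10 of 12 were lower in DES vs CON and in T.chuii vs CON, with median log2 fold changes of -0.82 and -0.62, and 5 of them in each had an unadjusted p under 0.05. All 3 adipocyte markers were higher at an unadjusted p under 0.05 in T.chuii vs DES and in T.chuii vs CON, with medians of 4.05 and 4.42. None of these markers was called by limma-voom, and their part in the member differences was not tested.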

How the data were processed

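Whole eyeballs gave 9 libraries, 3 in each of 3 groups taken from the sample titles; the kit keeps strand, according to the labels. The submitters' processing notes name HISAT2 2.1.0, StringTie 2.1.3b, Bowtie2 2.3.4.1, Trimmomatic 0.38 and FastQC 0.11.7, and the build mm10. The strand setting and row filter are not given in the sources used here. The deposited tables give a whole-number read count and an FPKM value for each of 22587 genes, per the file headers, with totals of 39.1 to 64.6 M reads and a smallest count of 1. As rows are irregular in length, both values were taken from the right end of each row. The counts were fitted only with limma-voom, as described below, and no other count model was used.

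The filter asked for a CPM in 3 or more libraries that equals 10 reads at the median depth, and for 15 reads or more in all, and left 21287 genes. Scaling used trimmed means of M-values, and scaled counts were fitted with limma-voom (limma 3.58.1, R 4.3.3), 1 mean per group over all 9 libraries, with Benjamini-Hochberg adjustment over all genes, two-sided, at 0.05; the step was tested on simulated data. Alternatives changed the scaling, filter, unit (log2 of FPKM plus 1 or 0.1), weights, samples and covariates. Coordinates and promoters are from the RefSeq tables of GRCm38.p6, and shared windows from GENCODE transcripts.

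The members and gene lists were chosen with earlier results of these data known. Values in every library are given for the 6 ligands and 10 receptors of highest mean FPKM, for Tnf, and for the members with the 4 smallest p in each direction of each comparison, with fold changes for Tnf and those 4. Same-numbered T.chuii and DES libraries correlated in their deviations from the group means at 0.63, 0.41 and 0.20, all above 0.1, so these numbers were taken as pairs; for DES and CON the values were -0.38, -0.28 and 0.32, and for T.chuii and CON -0.36, -0.42 and 0.34. T.chuii 3 correlated more with DES 2 (0.55) than with DES 3, and the numbers in the file headers (3, 4 and 5 for T.chuii, 1, 2 and 4 for DES) are not those of the titles. Differently numbered libraries of other groups also correlated, DES 1 with CON 2 at 0.54 and T.chuii 1 with CON 2 at 0.50. T.chuii 1, DES 1 and CON 2 are the libraries of high corneal to rod ratio. What part that ratio had in the correlations was not tested. The pairing rests on the data, not on a label, and is uncertain. The stricter promoter motif was added after seeing the data.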

Additional observations from a re-analysis of the deposited data

How the results depend on the processing

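No member was called in any comparison under any of 20 alternatives, 11 of them other settings and 9 leaving out 1 library each. Genes called over the whole table, 0 as reported, were 15 in DES vs CON without DES 2 (0 to 15 over the left-out libraries). In T.chuii vs CON they were 2 with library quality weights, 12 with only the 2 groups compared, 1 without CON 2, DES 1 and T.chuii 1 together, and 0 to 17 over the left-out libraries, with 17 without DES 2. In T.chuii vs DES they were 1 without those 3 libraries, 0 with each library left out, and 2 with a replicate block on the 6 DES and T.chuii libraries, an alternative chosen after seeing the data; the paired fit on all 9 libraries called 0 genes in each comparison and changed no other call. The count of members higher in DES than in CON, 15, was 24 with library quality weights and 13 to 24 over the left-out libraries. For T.chuii vs DES, 13, it was 12 to 21, and for T.chuii vs CON, 12, it was 11 to 20. These counts were also taken after seeing the data. Where the share of all genes higher is not given with a comparison above, whether all genes moved with the members was not examined. Of 518 alternative values for the 27 named log2 fold changes, 511 kept their sign and none passed the threshold, with a smallest adjusted p of 0.209. The other 7 were all of Tnf. In DES vs CON its value was 0.41 with library quality weights, 0.41 without the 3 libraries, and -0.95 to 0.29 over the left-out libraries (0.29 without CON 2). In T.chuii vs DES it was -0.37 to 0.34 over the left-out libraries (0.02 without DES 3, 0.34 without T.chuii 2), and in T.chuii vs CON -1.07 to 0.17 (0.17 without CON 2, 0.12 without T.chuii 2). The cause of these shifts was not tested. With 3 libraries a group, the median standard error of a member's log2 fold change was 0.44 to 0.45, and differences as large as that of Fas in T.chuii vs CON (1.42 ± 0.59) did not pass the threshold; the limit of detection was not measured.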
